A study of Homo sapiens with 6 samples.

Results

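Small RNA host genes are long noncoding RNA (lncRNA) genes whose primary transcripts also contain small nucleolar RNAs (snoRNAs) or microRNAs (miRNAs). They were followed in the human colon fibroblast line CCD18Co, an established cell line, after knockdown of *LTBP2*. Members were the lncRNA genes with an *SNHG* symbol (snoRNA host gene) or a *MIR...HG* symbol (miRNA host gene), together with *GAS5* and *DANCR*, which also host small RNAs. *EPB41L4A-AS1* was left out by name. The symbol rule matched 104 of the 60663 genes counted, and 56 of the 104 had at least 10 reads in 3 or more of the 6 libraries. The members were thus chosen by symbol or by name and selected on raw read counts. They were 27 of 30 snoRNA hosts and 29 of 74 miRNA hosts. The symbols and names were set with earlier results of these data known. The choice was therefore not shown to be independent of the difference between groups. The raw read counts come from the same libraries as the comparison, so membership itself carries no result.

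For 6 h, CCD18Co cells received either siRNAs pooled against *LTBP2* (siLTBP2) or control siRNAs without a target (siNT), and they were washed and frozen 48 h after transfection. There were 3 libraries of each, from 1 cell line and 1 siRNA pool per arm. The labels do not say whether the replicates were separate cultures, so p-values measure the spread between these libraries, which may be technical. The study used the knockdown to ask which genes depend on *LTBP2*, a matrix protein that it links to fibroblasts of liver metastases.

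In snoRNA host genes the functional product usually lies in the introns: it is cut out of the spliced-off intron and guides chemical modification of ribosomal RNA, while the spliced exons form a lncRNA that in several cases is removed by nonsense-mediated decay (NMD). Many snoRNA hosts start with a pyrimidine tract, the 5′ TOP motif that ribosomal protein genes also carry and that ties translation to growth signals. In miRNA host genes, the enzyme DROSHA cuts a hairpin from an intron or exon, and the mature miRNA represses mRNAs that pair with its seed. The reads counted on a host were taken here as those of its own lncRNA, although overlapping genes may share reads. The small RNA genes were counted apart.

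The miRNAs carried by the 5 miRNA hosts that passed the test are shown because they are what a reader would look for beside a change of the host. The sequences are the mature forms of RefSeq on GRCh38.p14, 5′ to 3′, with the seed (bases 2 to 8) in capitals.
hsa-miR-31-5p, in *MIR31HG* (chr9:21512158-21512178, minus strand): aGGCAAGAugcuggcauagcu
hsa-miR-221-3p, in *MIR222HG* (chrX:45746180-45746202, minus strand): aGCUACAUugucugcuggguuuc
hsa-miR-222-3p, in *MIR222HG* (chrX:45747036-45747056, minus strand): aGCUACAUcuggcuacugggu
hsa-miR-100-5p, in *MIR100HG* (chr11:122152275-122152296, minus strand): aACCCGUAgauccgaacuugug
hsa-let-7a-5p, in *MIR100HG* (chr11:122146568-122146589, minus strand): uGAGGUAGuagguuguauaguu
hsa-miR-125b-5p, in *MIR100HG* (chr11:122099809-122099830, minus strand): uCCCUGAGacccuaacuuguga
hsa-miR-146a-5p, in *MIR3142HG* (chr5:160485372-160485393, plus strand): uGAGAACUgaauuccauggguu
hsa-miR-3142, in *MIR3142HG* (chr5:160474492-160474513, plus strand): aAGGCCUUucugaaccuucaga
hsa-miR-22-3p, in *MIR22HG* (chr17:1713914-1713935, minus strand): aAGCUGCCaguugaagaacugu
The miR-221-3p and miR-222-3p sequences share the seed GCUACAU, and the other 7 each have a seed of their own. Over all members, 52 miRNA genes gave 92 mature sequences with 74 different seeds. The let-7 seed GAGGUAG occurred in 4 hosts, *MIR100HG*, *MIRLET7A1HG*, *MIRLET7BHG* and *MIR4458HG*.

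For snoRNA hosts the start of the transcript is shown, because a 5′ TOP motif is the feature that several of them are known to share. Each line gives 10 bases before the RefSeq start and 15 bases from it, on the strand of the gene (GRCh38.p14). Capitals mark a run that begins with C, goes on with at least 4 bases each C or T, and begins within 5 bases of the start.
*DANCR* (chr4:52712384-52712408, plus strand): tgcgcgccccgCCCTTgcccagagt
*SNHG8* (chr4:118278752-118278776, plus strand): ctcggCCTTTCacattcgggaagcg
*SNHG19* (chr16:2155344-2155368, minus strand): ccgcccctgtCTTTTCggggtcgag
*SNHG4* (chr5:139274091-139274115, plus strand): ctcccggctgCCCTTTCCCCTCCgg
*SNHG16* (chr17:76557754-76557778, plus strand): gggcggtctcgcgttCTTTTCgagg
*SNHG7* (chr9:136728170-136728194, minus strand): ccttctcgtCCTCTgcgtgcgccgg
*SNHG29* (chr17:16438977-16439001, plus strand): ccttttgtgaggattgggatattcc
*GAS5* (chr1:173869031-173869055, minus strand): tcatgaattcagatgtgtttatttt
*SNHG5* (chr6:85678719-85678743, minus strand): gcacttcggtCTTTTacgtcggcct
*SNHG32* (chr6:31834906-31834930, plus strand): cattttagttCTTTTTgcgaagtgg
The first 8 belong to hosts that were lower in siLTBP2, and the last pair to hosts that did not pass the test. By these letters, 12 of the 23 snoRNA hosts found in the RefSeq table used here held such a run (52.2%), against 21.1% of 35116 RefSeq promoters and 74.0% of 77 promoters of ribosomal protein genes. It was found in 6 of 8 lower hosts and in 6 of 15 others, and *SNHG9*, which was also lower, was not among the hosts matched. Where the run was missing, as in *GAS5* and *SNHG29*, only the letters around this annotated start are described. The *GAS5* letters lie wholly outside its span in GENCODE 44 (chr1:173858559-173868882). Those of *SNHG29* lie inside its span, which begins at chr17:16438767. Other annotated starts of these genes were not searched, so the counts hold for the RefSeq starts only.

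The libraries held between 44663424 and 53576899 counted reads, and levels are given as CPM, a gene's reads relative to the TMM-scaled size of its library. *LTBP2* itself was at 24.97, 23.1 and 21.2 CPM in the siNT libraries and at 6.49, 8.61 and 6.00 CPM in the siLTBP2 libraries (log2 fold change -1.72, SE 0.15, adjusted p = 6.6e-05, edgeR's quasi-likelihood test). The groups did not overlap (two-sided exact permutation test, p = 0.1, which 3 against 3 cannot go below). The 10 fibroblast markers summed to between 9952 and 14421 CPM per library, and 1 of them, the receptor gene *PDGFRB*, was lower in siLTBP2 (-0.60, adjusted p = 0.0025). Epithelial markers summed to at most 0.338 CPM and leukocyte markers to at most 0.359 CPM, with *KRT20* at 0 in every library. Of 5 endothelial markers, *TEK* made up nearly the whole sum of 59.8 to 83.5 CPM, while *CDH5*, *KDR* and *PECAM1* stayed under 0.3 CPM, and neither *TEK* nor *VWF* passed the test.

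Of the 56 host genes, 14 passed the test between siLTBP2 and siNT (25%), 4 higher and 10 lower, at an adjusted p below 0.05 over all 16920 genes tested. Among all genes tested, 19.3% passed, 9.76% higher and 9.51% lower. Of the 27 snoRNA hosts, 9 were lower and 0 higher (12 and 0 at an unadjusted p below 0.05, and 9 and 0 with DESeq2 or the likelihood ratio test), and 25 had a negative log2 fold change, compared with 50.7% of all genes. Of the 29 miRNA hosts, 4 were higher and 1 lower, and 18 had a positive log2 fold change. No share of all genes at an unadjusted p is given, so counts at that threshold, here and below, have no baseline. All 56 passed the filter on low counts. The counts and signs describe these members, which were chosen with earlier results of these data known. With *SNHG* and *MIR...HG* symbols only, so without *GAS5* and *DANCR*, 12 host genes passed. With TMM, RLE, upper-quartile or total-count scaling, 25 snoRNA hosts were negative and 9 were lower.

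**Figure D1:**
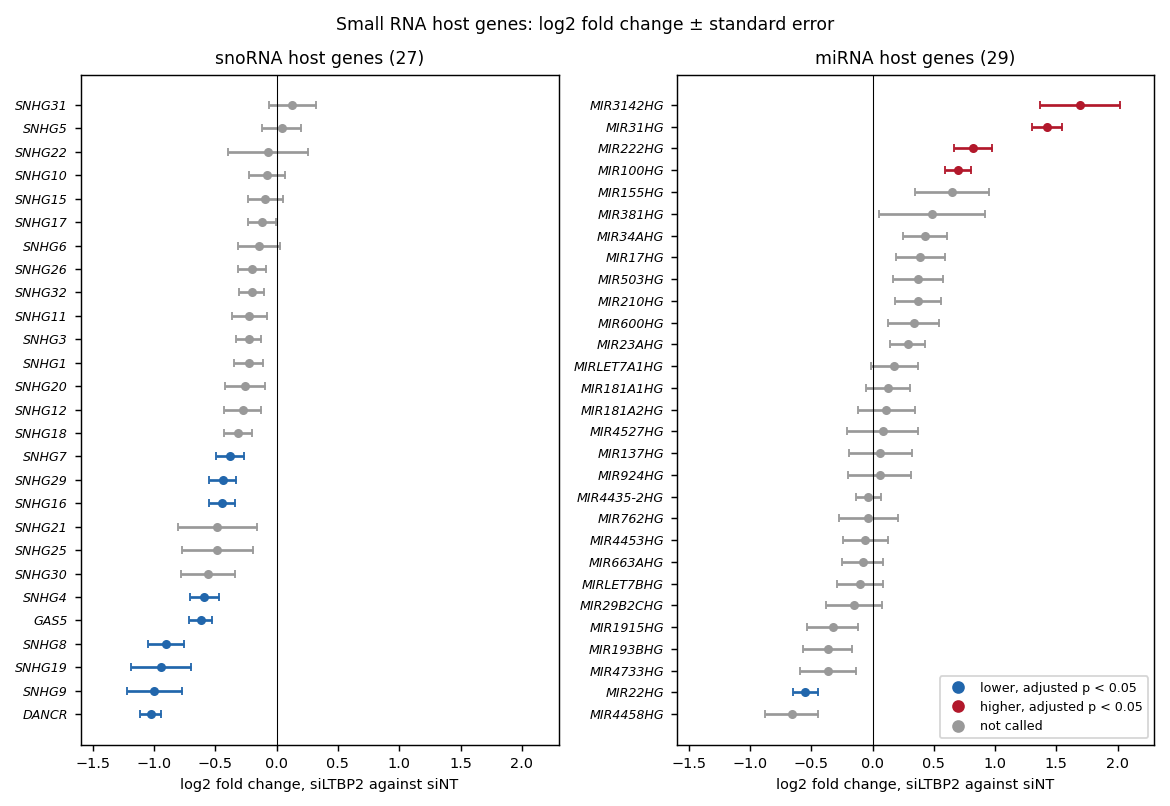
Log2 fold change of siLTBP2 against siNT (horizontal axis) for 27 snoRNA host genes (left) and 29 miRNA host genes (right), 1 point per gene with its standard error. Blue and red points passed an adjusted p of 0.05 in edgeR's quasi-likelihood test and grey points did not. Of the snoRNA hosts only *SNHG31* and *SNHG5* lie above 0, while miRNA hosts lie on both sides.

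The summed level of the 27 snoRNA hosts was between 1196 and 1320 CPM in the siNT libraries and between 865 and 995 CPM in the siLTBP2 libraries. The summed level of the 29 miRNA hosts was between 279 and 321 CPM in siNT and between 337 and 393 CPM in siLTBP2. In both classes the groups did not overlap, in opposite directions. A few abundant members carried these sums: *SNHG29*, *SNHG16* and *GAS5* made up -235.6 CPM of a mean difference of -337 CPM, and *MIR100HG*, *MIR31HG* and *MIR222HG* together differed by 67.8 CPM, against 67.4 CPM for all 29 miRNA hosts. In bulk RNA, fewer cells that express a gene and less of its RNA per cell cannot be told apart.

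*DANCR*, named for an RNA that holds back differentiation of progenitor cells, showed the largest fall among the members. It lies at chr4:52712325-52723623 on the plus strand (GENCODE 44, GRCh38) and its canonical transcript has 4 exons. Its level was 57.8, 57.3 and 57.0 CPM in the siNT libraries and 27.1, 28.0 and 29.2 CPM in the siLTBP2 libraries. Every siLTBP2 library was thus at about the same reduced level, 49.0% of siNT on average (57.4 ± 0.446 against 28.1 ± 1.09 CPM, SD, n = 3). The log2 fold change was -1.03 (SE 0.08, adjusted p = 4.7e-05, edgeR's quasi-likelihood test). *DANCR* was the only snoRNA host past both an adjusted p of 0.01 and a fold change of 2, the thresholds of the study, which 2.57% of all genes passed, 1.27% in the lower direction.

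*GAS5*, first described as a transcript that accumulates in growth-arrested cells, and whose spliced RNA is degraded by NMD, was lower as well. It lies at chr1:173858559-173868882 on the minus strand, with 12 exons in its canonical transcript. Its level was 144, 173 and 160 CPM in siNT and 100, 101 and 109 CPM in siLTBP2, so that the groups did not overlap. This gave 159 ± 14.2 against 103 ± 4.78 CPM (SD, n = 3) and a log2 fold change of -0.62 (SE 0.09, adjusted p = 0.0011, edgeR's quasi-likelihood test).

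*SNHG8*, host of the pseudouridylation guide SNORA24, was lower at 53.4% of its siNT level. It lies at chr4:118278703-118285316 on the plus strand. Its level was 39.9, 56.4 and 42.9 CPM in siNT and 22.0, 28.8 and 23.6 CPM in siLTBP2. The siNT libraries varied more here, but the lowest of them was above the highest siLTBP2 library (log2 fold change -0.90, SE 0.14, adjusted p = 0.0019, edgeR's quasi-likelihood test). *SNHG4* (chr5:139274102-139284899, plus strand), host of SNORA74A, was at 12.3, 15.3 and 13.4 CPM with siNT and 8.95, 8.90 and 9.36 CPM with siLTBP2 (-0.59, SE 0.12, adjusted p = 0.0069). The 3 siLTBP2 values lay within 1 CPM of each other and below every siNT value.

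The 2 most abundant snoRNA hosts changed less in proportion and most in absolute level. *SNHG29* (chr17:16438767-16480249, plus strand), host of the methylation guides SNORD49A, SNORD49B and SNORD65, was at 374, 463 and 422 CPM with siNT and 272, 338 and 317 CPM with siLTBP2 (log2 fold change -0.44, SE 0.11, adjusted p = 0.02). *SNHG16* (chr17:76557727-76670985, plus strand), host of the SNORD1 family, was at 276, 231 and 274 CPM with siNT and 174, 192 and 207 CPM with siLTBP2 (-0.45, SE 0.10, adjusted p = 0.012). For both genes the highest siLTBP2 library was under the lowest siNT library. *SNHG7* (chr9:136721366-136728184, minus strand), host of the SNORA17 genes, had the smallest called difference, from 36.5, 38.8 and 45.5 CPM in siNT to 27.5, 31.8 and 33.6 CPM in siLTBP2 (-0.38, SE 0.11, adjusted p = 0.04).

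*SNHG9* and *SNHG19* are short genes of 2 exons on chromosome 16 with few reads. *SNHG9* (chr16:1964895-1965509, plus strand), host of SNORA78, was at 1.66, 1.92 and 2.08 CPM with siNT and 0.780, 1.14 and 0.911 CPM with siLTBP2 (log2 fold change -0.998, SE 0.22, adjusted p = 0.01). *SNHG19* (chr16:2154792-2155405, minus strand), host of SNORD60, was at 1.73, 2.65 and 2.61 CPM with siNT and 0.918, 1.48 and 1.23 CPM with siLTBP2 (-0.94, SE 0.25, adjusted p = 0.022). The groups did not overlap in either gene, and the larger standard errors go with the lower levels.

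Without siLTBP2 replicate 1, 5 snoRNA hosts passed in place of 9, while the share of all genes that passed went from 19.3% to 13.8%: *SNHG16* (-0.38), *SNHG19* (-0.78), *SNHG29* (-0.36) and *SNHG7* (-0.30) no longer did. *SNHG19* (-0.84 and -0.85), *SNHG29* (-0.36 and -0.43) and *SNHG7* (-0.41 and -0.28) were also lost without siNT replicate 2 or siNT replicate 3, and *SNHG16* (-0.46) and *SNHG7* (-0.40) without siLTBP2 replicate 2. *DANCR*, *GAS5*, *SNHG8*, *SNHG4* and *SNHG9* kept their calls at an adjusted p below 0.05 in every other fit that was run, and *SNHG9* alone of these 5 was lost at an adjusted p below 0.01.

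**Figure D2:**
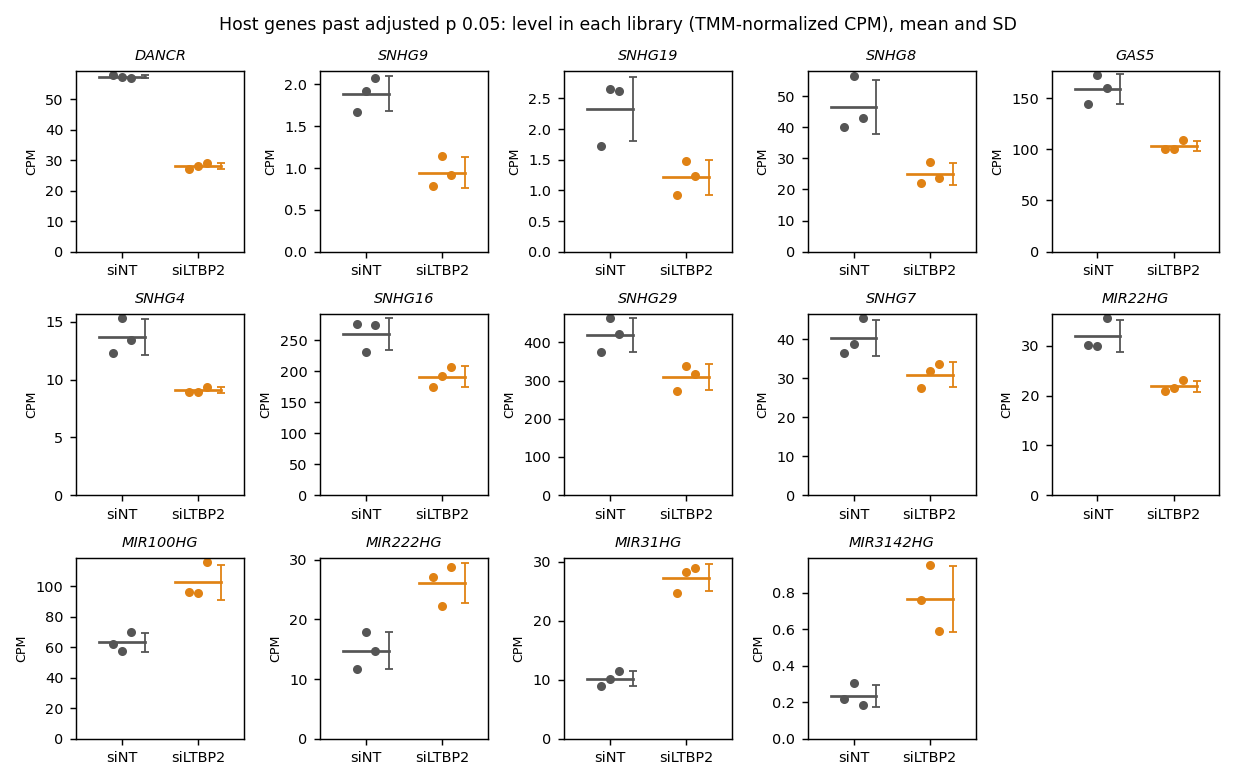
TMM-normalized level (CPM, vertical axis from 0) of the 14 host genes that passed the test, in the 3 siNT (grey) and 3 siLTBP2 (orange) libraries, with the mean as a line and the SD as a bar. In each panel the 3 siLTBP2 points lie wholly below (the first 10) or wholly above (the last 4) the 3 siNT points.

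The other 18 snoRNA hosts did not pass the test. *SNHG18*, *SNHG20*, *SNHG3* and *SNHG32* had every siLTBP2 library below every siNT library, which makes 13 of 27 snoRNA hosts with that order, against 18.3% of all genes, and 0 of 27 had the opposite order, against 18.7%. *SNHG3*, host of SNORA73B, was at 57.6, 58.9 and 63.7 CPM with siNT and 50.5, 45.7 and 57.5 CPM with siLTBP2 (log2 fold change -0.23, SE 0.10, adjusted p = 0.14, edgeR's quasi-likelihood test). *SNHG1*, one of the best known hosts, with many snoRNAs in its introns, overlapped between groups (40.2, 52.8 and 52.0 against 38.4, 40.0 and 45.3 CPM, adjusted p = 0.21). *SNHG5*, a 5′ TOP host like several of the lower genes, had 7.65, 7.49 and 5.95 CPM in siNT and 8.21, 6.07 and 7.40 CPM in siLTBP2 (0.04, SE 0.16, adjusted p = 0.9). The median log2 fold change of the 27 snoRNA hosts was -0.28, compared with -0.01 for all genes and -0.03 for the 1001 lncRNA genes with a mean of at least 1 CPM, of which 52.9% were negative, 8.69% lower and 7.29% higher.

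Among the miRNA hosts, *MIR31HG* had the smallest adjusted p. The gene lies at chr9:21380073-21559891 on the minus strand and contains miR-31, a miRNA studied in invasion and metastasis, and its lncRNA has been tied to senescence. It was at 8.97, 10.0 and 11.5 CPM with siNT and 24.6, 28.3 and 29.0 CPM with siLTBP2. All 3 siLTBP2 libraries exceeded the highest siNT library more than 2 times (10.2 ± 1.25 against 27.3 ± 2.34 CPM, SD, n = 3). The log2 fold change was 1.42 (SE 0.12, adjusted p = 6.6e-05, edgeR's quasi-likelihood test).

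*MIR3142HG* (chr5:160438594-160487426, plus strand), which holds miR-3142 and miR-146a, a miRNA known to restrain NF-κB signalling, had the largest log2 fold change of all members on few reads. It was covered by 10, 15 and 10 reads in siNT and by 33, 45 and 31 reads in siLTBP2, which is 0.216, 0.304 and 0.185 CPM against 0.757, 0.952 and 0.588 CPM. The groups stood apart (log2 fold change 1.69, SE 0.33, adjusted p = 0.0052, edgeR's quasi-likelihood test). *MIR31HG* and *MIR3142HG* were the 2 members higher by the thresholds of the study, which 1.29% of all genes passed in that direction.

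*MIR100HG* (chr11:122028325-122556721, minus strand) is the common host of miR-100, let-7a and miR-125b, and was the most abundant of the higher hosts. It was at 61.8, 57.7 and 69.7 CPM with siNT and 96.3, 95.2 and 116 CPM with siLTBP2 (log2 fold change 0.70, SE 0.11, adjusted p = 0.0013, edgeR's quasi-likelihood test). *MIR222HG* (chrX:45745210-45770274, minus strand) carries miR-221 and miR-222, which repress the cell cycle inhibitor p27. It was at 11.7, 18.0 and 14.6 CPM with siNT and 27.2, 22.3 and 28.8 CPM with siLTBP2 (0.82, SE 0.16, adjusted p = 0.005). In both genes every siLTBP2 library was above every siNT library.

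*MIR22HG* (chr17:1711447-1717174, minus strand), whose exon holds miR-22 and whose RNA is known to respond to cellular stress, was the only miRNA host called lower by the quasi-likelihood test. Its level was 30.1, 30.0 and 35.6 CPM in siNT and 20.9, 21.4 and 23.2 CPM in siLTBP2 (log2 fold change -0.55, SE 0.10, adjusted p = 0.0046, edgeR's quasi-likelihood test). The let-7 host *MIR4458HG* also separated, with 3.11, 3.73 and 4.45 CPM against 2.23, 1.90 and 3.00 CPM, and did not pass (-0.66, adjusted p = 0.053). It was called lower in 7 of the alternatives, among them DESeq2 and the likelihood ratio test, which the study used. *MIR4435-2HG*, the miRNA host of highest CPM in siNT, was at 74.3, 87.6 and 68.9 CPM with siNT and 74.6, 69.8 and 80.9 CPM with siLTBP2 (-0.03, adjusted p = 0.86). The median log2 fold change of the 29 miRNA hosts was 0.11, and all 5 called hosts kept their calls in every alternative that tested them.

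Per length of exon, the snoRNA hosts of highest level in siNT were *SNHG29* (46.9 RPKM), *SNHG16* (45.1 RPKM), *GAS5* (32.2 RPKM), *SNHG3* (14.7 RPKM) and *SNHG1* (12.2 RPKM). The highest miRNA hosts were *MIR22HG* (10.3 RPKM), *MIR222HG* (5.15 RPKM), *MIR4733HG* (2.51 RPKM), *MIR4435-2HG* (2.25 RPKM) and *MIR100HG* (2.09 RPKM). The length used is the union of all annotated exons, and with the canonical transcript 4 of the 5 snoRNA hosts and 3 of the 5 miRNA hosts stayed among the 5 highest. The values and the order depend on that choice: with the canonical transcript *MIR4435-2HG* was at 89.7 RPKM and *MIR100HG* at 35.1 RPKM, above *MIR22HG* at 11.1 RPKM. Just inside the threshold on reads stood *MIR381HG*, with 17, 24 and 9 reads in siNT and 31, 16 and 20 in siLTBP2. Just outside it stood *MIR3681HG* and *MIR4280HG*, which reached 10 reads in 2 libraries, and *SNHG14*, which had 13 reads in siLTBP2 replicate 2 and at most 2 elsewhere. Of the 48 genes outside, 20 had 0 reads in every library.

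The small RNA genes inside the hosts were counted as genes of their own. In 54 hosts, 108 small RNA genes were annotated, 52 miRNAs and 56 snoRNAs or scaRNAs. All 71 that lie within an exon of any annotated transcript of their host had 0 reads in every library. Among them were miR-22, miR-146a and the snoRNAs of *SNHG29*. There the annotations of host and small RNA coincide, so a read may not be assigned to either. These counts of 0 therefore cannot show whether the small RNAs were in the libraries. Of the 32 within introns, 29 had reads, and *SNORA73B* in *SNHG3* had the most, 21128 in all.

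Of the 5 at an exon boundary, *MIR221* had reads. For 13 small RNA genes, 12 in introns and *MIR221*, the reads were enough for a test, and 0 of 13 passed an adjusted p of 0.05 in edgeR's quasi-likelihood test, the likelihood ratio test or DESeq2, while 2 of 13 had an unadjusted p below 0.05 in the first of these. All 13 had the sign of their host, but for some the value was near 0. *SNORD99* was at -0.002 (SE 0.36), and *SNORA73B*, with the most reads, at -0.09 (SE 0.21). *SNORA74D* was at 1.45, 1.46 and 1.39 CPM with siNT and 0.940, 0.930 and 1.02 CPM with siLTBP2 (-0.57, SE 0.20, adjusted p = 0.074), close to the -0.59 of its host *SNHG4*. *SNORA74A* in the same host was at -0.46 (SE 0.22, adjusted p = 0.19). In *MIR100HG* the reads over *MIR125B1*, *MIR100* and *MIRLET7A2* gave 0.84, 0.45 and 0.08 (SE 0.41, 0.44 and 0.44), in *MIR222HG* those over *MIR221* gave 0.71 (SE 0.35), and in *MIR31HG* those over *SNORD39* gave 0.90 (SE 0.36). Total RNA libraries of this kind retain few molecules as short as a mature miRNA, and reads in an intron can come from the unspliced host, so the mature levels were not measured.

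**Figure D3:**
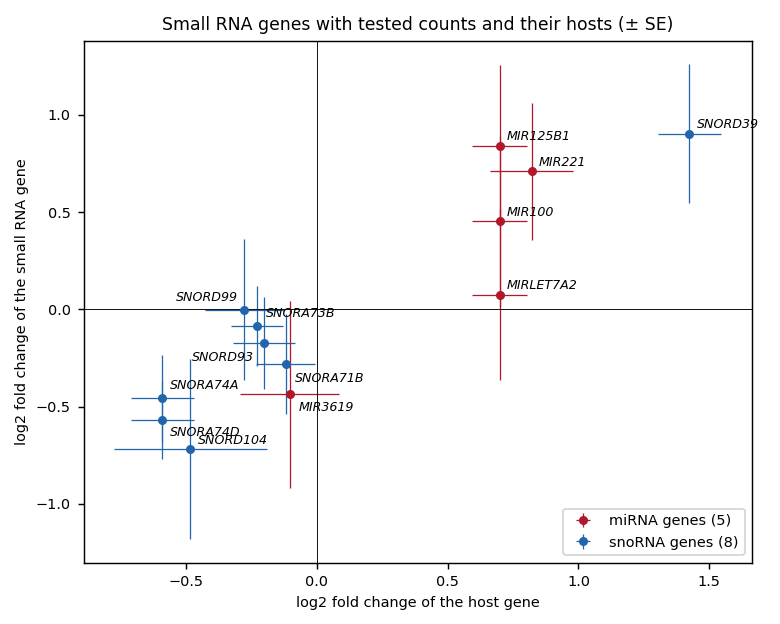
Log2 fold change of the 13 small RNA genes with enough reads for a test (vertical axis) against that of their host gene (horizontal axis), with standard errors on both. All 13 points share the sign of the host, none passed the test, and several error bars cross 0, as for *MIRLET7A2* (0.08 ± 0.44).

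Several hosts overlap other genes, whose values are given because reads of shared exons may not be separable. Of 41 overlapping genes tested, 8 passed an adjusted p of 0.05 in edgeR's quasi-likelihood test, where 19.3% of all genes tested did. The libraries were stranded, but whether the counting used strand was not given in the sources used here. *GAS5-AS1*, a lncRNA on the other strand of *GAS5*, went in the opposite direction to its neighbour, from 0.751 ± 0.152 to 1.49 ± 0.341 CPM (SD, n = 3, log2 fold change 0.98, adjusted p = 0.024, edgeR's quasi-likelihood test). *ERVMER34-1*, an endogenous retroviral envelope gene with exons that overlap *DANCR* on the other strand, was lower at 1.57 against 0.647 CPM (-1.29, adjusted p = 0.016). *PRSS12*, a protease gene overlapping *SNHG8* on the other strand, was also lower (-0.51, adjusted p = 0.023). On the same strand, the interferon gene *IFNE* inside *MIR31HG* was higher (1.24, adjusted p = 0.04), as was the lncRNA ENSG00000269902 inside *MIR222HG* (0.85, adjusted p = 0.021). Other genes that share exons with called hosts did not pass. These were *SIL1* with *SNHG4* (0.17, adjusted p = 0.29), *LRRC75A* with *SNHG29* (-0.72, adjusted p = 0.37) and *BLID* with *MIR100HG* (0.16, adjusted p = 0.72).

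Coding genes that start head to head with a host, within 1000 bases on the other strand, passed in 1 of 10 cases, *TRAF7* beside *SNHG19* (-0.37, adjusted p = 0.017). *RPS2*, a ribosomal protein gene that starts 54 bases from *SNHG9*, had levels of 1484 ± 100.03 against 1367 ± 52.4 CPM (-0.12, adjusted p = 0.46). *ZBTB37* beside *GAS5* (-0.10, adjusted p = 0.56) and *WDR81* beside *MIR22HG* (-0.16, adjusted p = 0.36) did not pass either. The part of overlapping reads in the host values was not tested.

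Genes that act on host transcripts or share their promoter type were compared as whole groups. Among all genes tested, 19.3% passed the test, 9.76% higher and 9.51% lower. Of 85 ribosomal protein genes, 2 were higher (*RPS27L* at 0.72 and *RPL39L* at 0.48) and 2 lower (*RPL22* at -0.41 and *RPS4X* at -0.31). The list was drawn by symbol, and both higher genes are paralogs named as like a ribosomal protein gene. Their median log2 fold change was -0.11, and 73 of 85 were negative. Of 14 other 5′ TOP mRNAs, 1 was lower, the elongation factor gene *EEF2* (-0.70, adjusted p = 0.0016), and the median was -0.03. The 220 coding genes that host snoRNAs by the annotation had a median of 0.00, with 20 higher and 15 lower. None of 17 genes for snoRNP proteins, the proteins that assemble on snoRNAs, passed edgeR's quasi-likelihood test (median 0.02), nor with the likelihood ratio test or DESeq2, and 3 of 17 were higher at an unadjusted p below 0.05.

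Of 14 NMD and exon junction factors, 2 were higher, *UPF3B* (0.50, adjusted p = 0.034) and *EIF4A3* (0.34, adjusted p = 0.024), and 0 lower by edgeR's quasi-likelihood test, where 6 were higher and 0 lower at an unadjusted p below 0.05. The likelihood ratio test and DESeq2 gave the same counts. Among all genes tested, 9.76% were higher at an adjusted p below 0.05, and the share at an unadjusted p is not given. The helicase gene *UPF1*, central to NMD, had a mean of 131 ± 16.3 CPM in siNT against 140 ± 5.90 CPM in siLTBP2 (0.09, adjusted p = 0.59). Of 10 genes of the integrated stress response, *CHAC1* was higher (0.53) and *ATF3* lower (-0.56), and the median was 0.24. *ATF4*, the transcription factor at the centre of that response, was at 203 ± 34.9 against 264 ± 26.8 CPM (0.38, adjusted p = 0.063).

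Of 15 genes for miRNA processing and Argonaute proteins, 6 passed, 4 higher and 2 lower, where 19.3% of all genes tested passed. The Dicer gene *DICER1* (0.66, adjusted p = 9.9e-04), the Argonaute gene *AGO2* (0.69, adjusted p = 0.013) and the Argonaute partners *TNRC6A* (0.64) and *TNRC6B* (0.42) were higher. *PRKRA*, which encodes a partner of Dicer, went from 33.6 ± 3.00 to 13.1 ± 0.745 CPM (SD, n = 3, log2 fold change -1.36, adjusted p = 4.0e-05, edgeR's quasi-likelihood test), and *TNRC6C* was lower (-0.75). Of 20 p53 targets, *TP53INP1* (0.90), *PLK3* (0.66) and *BAX* (0.52) were higher and *TP53I3* (-0.52) was lower, and of 8 hypoxia genes *ANKRD37* (1.16) was higher and *NDRG1* (-0.85) lower. Their medians were 0.11 and 0.23. *MIR34AHG* and *MIR210HG*, hosts of a p53-induced and a hypoxia-induced miRNA, were at 0.43 (adjusted p = 0.13) and 0.37 (adjusted p = 0.2).

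**Figure D4:**
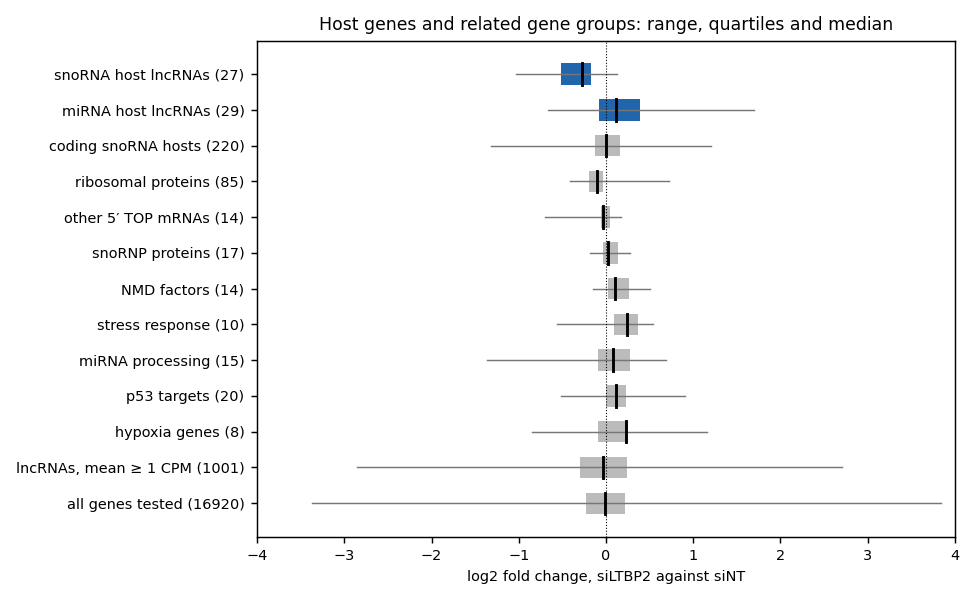
Log2 fold change of siLTBP2 against siNT for the host lncRNAs (blue) and 11 other gene groups (grey), with the number of genes tested in brackets. Thin lines give the lowest to the highest gene, boxes the middle range between quartiles and black bars the median, which is -0.28 for snoRNA hosts, 0.11 for miRNA hosts, -0.11 for ribosomal proteins and 0.00 for coding snoRNA hosts.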

How the data were processed

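RNA was sequenced from 6 CCD18Co libraries, 3 siNT and 3 siLTBP2, prepared with ribosomal RNA depletion and a stranded kit. Per the submitters' processing notes, bcl2fastq, STAR 2.7.1a and HTSeq 0.11.2 were used with GRCh38, and the authors deposited raw read counts per gene without normalization. The Ensembl release and whether the counting used strand were not given in the sources used here. Between 44663424 and 53576899 reads per library were counted, which limits the precision of members with few reads. Columns were mapped to samples by their labels.

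Counts were filtered with filterByExpr, scaled by TMM and tested in all 6 libraries with edgeR 4.0.16 (R 4.3.3) by the quasi-likelihood test, two-sided and without a block, with Benjamini-Hochberg adjustment over the 16920 genes tested. To obtain a standard error, each log2 fold change was divided by the root of its F statistic. The steps were tested on simulated data. Alternatives were the likelihood ratio test (which the study names), DESeq2 1.42.0, other scaling, filters and thresholds, the replicate number as a block and leaving out each library. Removing trends with transcript length or GC content, and the canonical length for levels, were alternatives chosen after seeing the data. Libraries of 1 group differed by more than sampling noise (chi-square per degree of freedom 27.7 to 55.1).

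The members and the gene lists (ribosomal proteins, other 5′ TOP mRNAs, snoRNP, NMD, stress response, miRNA processing, p53, hypoxia, coding snoRNA hosts, cell markers) were chosen with earlier results of these data known. Genes were named by rule: *LTBP2*, members past an adjusted p of 0.05, *GAS5* and *DANCR*, the 5 of highest RPKM in each class, members nearest the count threshold, up to 4 called genes per list, and the small RNAs and neighbours of called members. The values of 1 neighbour and 1 marker are not reported here. *SNHG5*, *SNHG18*, *SNHG20*, *SNHG31*, *SNHG32*, *MIR4458HG*, *MIR34AHG*, *MIR210HG*, *UPF1*, *ATF4*, *TNRC6A*, *TNRC6B*, *SNORA73B*, *SNORD99* and the marker genes named outside the rule were chosen after their values were seen. RPKM and positions use GENCODE 44 (GRCh38), which has a model for 55 of 56 members. The lowest coordinate was the same in the deposited counts for 35 members, so the gene models counted can differ from those used here. *MIR31HG*, for example, begins at chr9:21453802 in the deposited counts and at chr9:21380073 in GENCODE 44.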

Additional observations from a re-analysis of the deposited data

How the results depend on the processing

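Across the alternatives, *DANCR* stayed between -1.07 and -1.002, *GAS5* between -0.69 and -0.56 and *MIR31HG* between 1.34 and 1.52 on the log2 scale, all past an adjusted p of 0.05. Of 302 alternatives run on 19 of the host genes, 284 kept direction and call, 13 lost the call, 3 gained one and 2 changed sign. Over all 56, 10 uncalled host genes were called in some fit, *MIR4458HG* in 7, *MIR155HG* and *MIR34AHG* in 3 each. The sign changed for *MIR4435-2HG*, at 0.0695 without siNT replicate 2 and 0.01 without siLTBP2 replicate 2, within a range of -0.11 to 0.07 when 1 library was left out. *SNHG7* was also not called with the GC trend removed (-0.22). Leaving out 1 library gave 10 to 17 host genes changed (4 to 6 higher, 6 to 13 lower, 6 without siLTBP2 replicate 1), 5 to 11 snoRNA hosts, 5 to 7 miRNA hosts, 2 to 3 past the thresholds of the study and 23 to 26 negative snoRNA hosts, while 12.4% to 15.9% of all genes passed. An adjusted p below 0.01 left 9 host genes, and without the low-count filter 8 miRNA hosts passed, with 11.5% of genes called. With a replicate block, 24 host genes passed (8 higher, 16 lower), 14 snoRNA hosts and 10 miRNA hosts, while 36.2% of all genes did. The numbers were not shown to pair the libraries. Same-numbered libraries correlated at 0.30, 0.083 and 0.43, and differently numbered ones between -0.39 and 0.10. Only siNT replicate 2 correlated better with another number, at 0.103 with siLTBP2 replicate 1. The main test, without a block, may therefore leave out a pairing, which the labels do not settle. The level order of miRNA hosts shared 3 of 5 with the canonical length. *MIR3142HG* was not tested with a filter of 1 CPM. Few reads limit the precision for hosts such as *MIR381HG* and *MIR3142HG*.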

Other observations

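The word GCACCCA was searched because an earlier analysis of these data had picked it out among the lower genes, and it was not chosen independently. It is present in the canonical transcript of 45.3% of the lower genes with a transcript model and of 21.3% of all genes tested. These sets differ in median canonical length and GC content. The medians were 3312 bases and 53.1% for the lower genes, and 2682 bases and 48.0% for all genes tested. For the lower host genes they were 1562.5 bases and 49.2%. The part of length and GC content in these shares was not tested. Of the 10 lower host genes, 0 held it in the canonical transcript and 2 in any isoform, while 10 of 55 members (18.2%) and 12.5% of tested lncRNA genes held it in the canonical transcript. A match is a description of the letters only.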
